A study of Homo sapiens with 10 samples.

Results

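The markers of dedifferentiated melanoma described here were 9 genes that melanoma cells use when they leave the pigmented, MITF-driven state. They were POU3F2, SOX2, SOX9, NGFR, AXL, CD44, NT5E, F3 and AJUBA, taken by gene symbol from the probe annotation. Each had 1 probe set, so 9 of 18569 probe sets, or 9 of 17492 named genes, are the subject. Array signal was compared between A375 cells plated for 4 days with doxycycline at 2 µg/ml and A375 control cells plated without it, with 5 arrays labelled as biological replicas in each group. A375 is an established human melanoma line with an activating BRAF mutation. The series title names Omomyc, an engineered MYC fragment that competes with MYC for its partner MAX, and doxycycline commonly switches such transgenes on. The labels do not describe the construct or whether the cells are a clone, and none of the 10 arrays is labelled as doxycycline-treated cells without it. An effect of doxycycline itself and an effect of the transgene cannot be told apart here.

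Melanoma cells move between states. In the melanocytic state MITF, the lineage transcription factor, drives pigment genes, and in neural crest-like and undifferentiated states MITF output is low and surface receptors such as NGFR or AXL appear. AXL-high, MITF-low cells are known for tolerance of BRAF inhibitors, and POU3F2 is known to repress MITF. These states are sets of genes that often, but not always, move together.

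The line fitted its label in part. SOX10, the neural crest factor that marks melanoma, had a mean log2 signal of 8.91 ± 0.11 with doxycycline and 8.71 ± 0.13 in control cells (SD, n = 5 each; adjusted p = 0.102), and S100B, a calcium-binding melanoma antigen, had 7.84 ± 0.10 with doxycycline and 7.58 ± 0.08 in control cells (0.26 ± 0.08). Of the 8 melanoma markers checked limma called 5 higher and 0 lower, with 0 lower also at an unadjusted p under 0.05. Over all probe sets it called 20.9% higher and 17.2% lower. Without control array 2, 3 of the 8 markers were called higher, and S100B was among those lost (adjusted p = 0.0525). Group means of the pigment cell genes TYR, PMEL and MLANA lay between 1.83 and 2.49 in both groups, under the lowest first quartile of any array (2.80). RMA values near that quartile hold little signal, and fold changes there are compressed. TYR was nevertheless among the 5 called higher, and a fall of these 3 genes could hardly be seen. Without probe sets under the 25th percentile of mean signal, 4 of 5 melanoma markers tested were called higher and 0 lower. Over all probe sets, pairs of doxycycline arrays correlated at 0.990 to 0.996 and pairs of control arrays at 0.993 to 0.997. Pairs taken across the groups correlated at 0.970 to 0.976. Such ranges cannot show whether a single array stood apart. Doxycycline array 1 had the highest first quartile of all arrays (2.94). Its omission raised the number of probe sets called from 7078 to 7237, whereas omitting any other array lowered that number. The reason was not tested.

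Doxycycline lowered 6 of the 9 markers (limma, adjusted p under 0.05), and 0 of the 9 were called higher, also at an unadjusted p under 0.05 and by the exact permutation test. POU3F2 fell most, to a level 2.71-fold lower, followed by NGFR at 2.06-fold, NT5E at 1.72-fold, AXL at 1.55-fold, AJUBA at 1.44-fold and SOX2 at 1.23-fold lower. CD44, F3 and SOX9 did not pass the test. Among all 18569 probe sets 38.1% were called, 20.9% higher and 17.2% lower. Calls were denser among brighter probe sets. Of the 9285 kept by a filter at the median signal, 3029 were called higher and 2557 lower. A list of brighter genes can therefore exceed the shares over all probe sets without being unusual. With that filter 5 markers were called lower and 0 higher. The median log2 fold change was -0.53 over the 9 markers and 0.04 over all probe sets. The doxycycline and control arrays did not overlap for 5 markers, all lower with doxycycline, where 28.6% of all probe sets showed no overlap and 13.6% did so as lower with doxycycline. The labels call the arrays biological replicas but do not say whether they came from separate cultures. Every p-value here therefore rests on sample-to-sample spread that may be technical. In bulk RNA, fewer cells in a state and less RNA per cell cannot be told apart. Values in parentheses after gene names are log2 fold changes ± SE, doxycycline minus control, from 5 arrays per group.

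**Figure D1:**
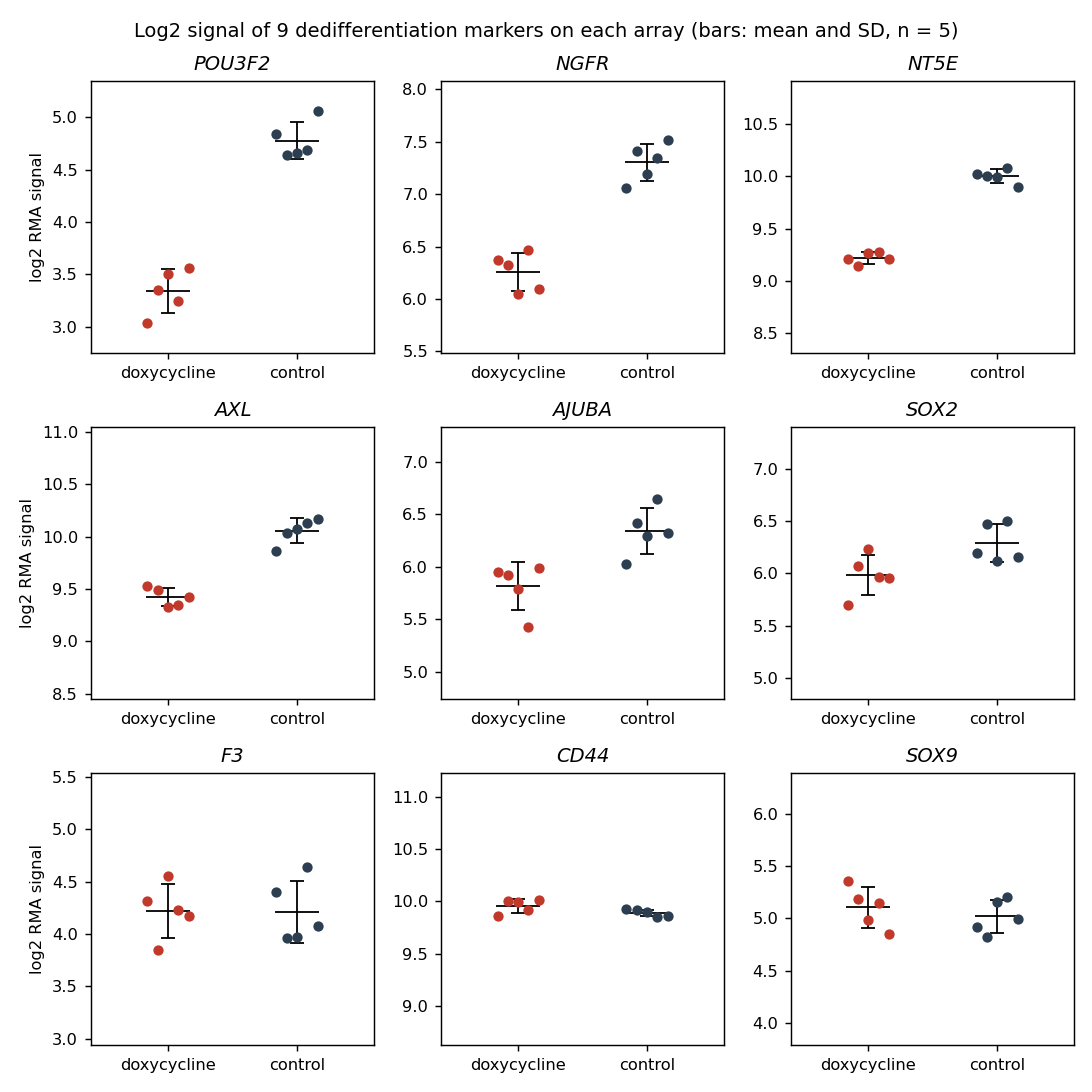
Log2 RMA signal (vertical axis, the same span in every panel) of the 9 markers on each array, doxycycline left and control right, with the mean and SD of 5 arrays as bars. POU3F2, NGFR, NT5E, AXL and AJUBA separate without overlap, SOX2 overlaps, and F3, CD44 and SOX9 have overlapping ranges.

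The sequence just before the transcription start was examined for 7 of the 9 genes that matched the promoter table of RefSeq (GRCh38.p14). Over 9 starts, 250 bases each were searched on both strands for 6 motifs. They were the E-box CACGTG bound by MYC and MAX, the M-box CATGTG bound by MITF, the AP-1 site TGANTCA, the TEAD site GGAATG, the SOX site ACAAAG and the octamer ATGCAAAT bound by POU factors. Shown are POU3F2, the marker that fell most, and the 4 windows with at least 1 match, with matches in capitals.
POU3F2: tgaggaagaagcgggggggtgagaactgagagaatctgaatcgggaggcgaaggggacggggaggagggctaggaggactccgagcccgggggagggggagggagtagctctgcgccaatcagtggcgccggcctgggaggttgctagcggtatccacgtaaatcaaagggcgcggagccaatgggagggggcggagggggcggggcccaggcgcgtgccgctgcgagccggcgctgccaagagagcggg
AXL: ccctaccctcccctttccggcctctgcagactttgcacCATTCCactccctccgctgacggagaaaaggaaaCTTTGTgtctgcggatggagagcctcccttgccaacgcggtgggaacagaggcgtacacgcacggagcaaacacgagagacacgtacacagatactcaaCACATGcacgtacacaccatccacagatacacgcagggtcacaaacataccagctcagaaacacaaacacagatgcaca
SOX2: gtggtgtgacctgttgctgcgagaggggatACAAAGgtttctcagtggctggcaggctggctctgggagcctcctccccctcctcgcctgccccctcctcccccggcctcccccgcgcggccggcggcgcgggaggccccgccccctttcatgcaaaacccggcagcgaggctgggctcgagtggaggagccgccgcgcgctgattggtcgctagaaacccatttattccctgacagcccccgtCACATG
AJUBA: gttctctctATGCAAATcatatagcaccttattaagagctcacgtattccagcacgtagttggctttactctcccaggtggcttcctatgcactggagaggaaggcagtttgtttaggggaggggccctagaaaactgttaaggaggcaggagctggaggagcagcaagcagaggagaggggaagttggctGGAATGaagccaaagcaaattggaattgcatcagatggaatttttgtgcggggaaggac
F3: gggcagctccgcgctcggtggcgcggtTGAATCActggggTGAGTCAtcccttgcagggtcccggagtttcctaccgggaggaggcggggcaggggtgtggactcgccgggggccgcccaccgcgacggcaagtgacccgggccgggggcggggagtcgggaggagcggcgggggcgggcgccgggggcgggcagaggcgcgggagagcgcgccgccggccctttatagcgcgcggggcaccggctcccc
These windows are chr6:98834324-98834573 (plus strand), chr19:41226505-41226754 (plus strand, the downstream of both AXL starts), chr3:181711675-181711924 (plus strand), chr14:22976843-22977092 (minus strand, the downstream of both AJUBA starts) and chr1:94541760-94542009 (minus strand). AXL held a TEAD site 212 bases before its start, a SOX site 178 bases and an M-box 79 bases before it. SOX2 held a SOX site 220 bases and an M-box 6 bases before the start. In AJUBA an octamer lay 241 bases and a TEAD site 59 bases before the start, and F3 had AP-1 sites at 223 and 210 bases. No matches overlapped, and POU3F2, NT5E, CD44 and the other starts of AXL and AJUBA held none of the 6 motifs. Of 35116 such windows in the table, 13.7% held the SOX site, 11.9% the TEAD site, 9.42% the M-box, 6.57% the AP-1 site, 6.34% the E-box and 1.63% the octamer. A match is a run of letters and not a measured binding site.

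Among the transcription factors, POU3F2, a POU domain factor of the neural lineage, read 3.04, 3.36, 3.50, 3.24 and 3.56 log2 units on the doxycycline arrays, against 4.84, 4.64, 4.65, 4.69 and 5.06 on the control arrays. Every doxycycline array lay more than 1 unit below the lowest control array, and the doxycycline signal came close to the first quartile of those arrays (2.83 to 2.94). The log2 fold change was -1.44 ± 0.11 (SE, adjusted p = 1.06e-07), and 1.88% of all probe sets had a change as low or lower. Array differences are compressed at so dim a signal. Its measured neighbours in gene order, MMS22L, a replication fork repair gene (-0.96 ± 0.11), and FBXL4, a mitochondrial F-box gene (-0.43 ± 0.09), also fell. For the other 5 markers that fell, limma called 0 of the 10 measured neighbours, of which 2, both beside SOX2, had an unadjusted p under 0.05. Of the 12 neighbours of all 6 lowered markers, 2 were called lower and 0 higher. That share is near the 17.2% lower over all probe sets and is no result about the neighbours. Beside SOX9, which did not pass, KCNJ2 fell (-0.93 ± 0.12) and SLC39A11 rose (0.83 ± 0.11). Beside F3, SLC44A3 rose (0.81 ± 0.14).

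SOX2, a stem cell factor with an HMG-box DNA-binding domain, read 5.70, 6.07, 6.23, 5.97 and 5.96 log2 units with doxycycline, against 6.20, 6.47, 6.12, 6.50 and 6.15 in control cells. The groups overlapped, since doxycycline array 3 lay above 3 of the control arrays. The difference of -0.30 ± 0.11 passed narrowly (adjusted p = 0.0446), and the two-sided exact permutation test of this gene gave p = 0.0397. The call was lost without control array 1 (adjusted p = 0.0533), 2 (0.112) or 4 (0.109), and without doxycycline array 1 (0.0993), 2 (0.0529), 4 (0.0752) or 5 (0.0780). It was also lost when arrays were centred on their medians (0.0763), quantile normalized again (0.0803) or weighted (0.138), and with the replicate number as a block (0.0596).

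SOX9, a related factor that is high in undifferentiated melanoma, read 5.36, 5.18, 4.99, 5.14 and 4.85 log2 units with doxycycline, against 4.92, 4.82, 5.16, 5.20 and 5.00 in control cells. Both groups spanned nearly the same range. The difference was 0.08 ± 0.11 (adjusted p = 0.593), with a 95% confidence interval of -0.14 to 0.31.

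Of the surface receptors, NGFR, the low-affinity neurotrophin receptor that marks neural crest-like cells, read 6.37, 6.33, 6.04, 6.47 and 6.10 log2 units with doxycycline, against 7.06, 7.41, 7.19, 7.34 and 7.52 in control cells. All 5 doxycycline arrays were below all control arrays, and the change was -1.04 ± 0.11 (adjusted p = 1.87e-06). Of all probe sets 3.73% had a change as low or lower.

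AXL, a receptor tyrosine kinase for the ligand GAS6, read 9.53, 9.49, 9.32, 9.35 and 9.42 log2 units with doxycycline, against 9.86, 10.04, 10.07, 10.13 and 10.17 in control cells. The fall of -0.63 ± 0.08 (adjusted p = 2.29e-05) left a strong signal in both groups. CD44, the hyaluronan receptor, stayed between 9.86 and 10.01 on the doxycycline arrays and between 9.85 and 9.92 on the control arrays. Its difference was 0.07 ± 0.07 (adjusted p = 0.521), with an interval of -0.09 to 0.22. The single CD44 probe set cannot separate the splice forms of this gene.

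NT5E, the ectoenzyme that turns AMP outside the cell into adenosine, read 9.21, 9.14, 9.27, 9.27 and 9.21 log2 units with doxycycline, against 10.03, 10.00, 10.00, 10.08 and 9.89 in control cells. The spread within each group was small (SD 0.05 with doxycycline and 0.07 in control cells), and the change was -0.78 ± 0.07 (adjusted p = 6.24e-07). AJUBA, a LIM-domain adaptor of cell junctions that restrains the LATS kinases, read 5.95, 5.92, 5.78, 5.43 and 5.99 log2 units with doxycycline, against 6.03, 6.42, 6.29, 6.65 and 6.32 in control cells. The groups were parted by a narrow gap between doxycycline array 5 and control array 1, and the change was -0.53 ± 0.13 (adjusted p = 0.00374). F3, tissue factor, which starts blood clotting with factor VII, read 4.31, 3.84, 4.55, 4.23 and 4.17 with doxycycline, against 4.40, 3.96, 3.97, 4.64 and 4.08 in control cells. Its difference was 0.01 ± 0.15 (adjusted p = 0.962) with an interval of -0.30 to 0.33, the widest of the 9 markers.

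**Figure D2:**
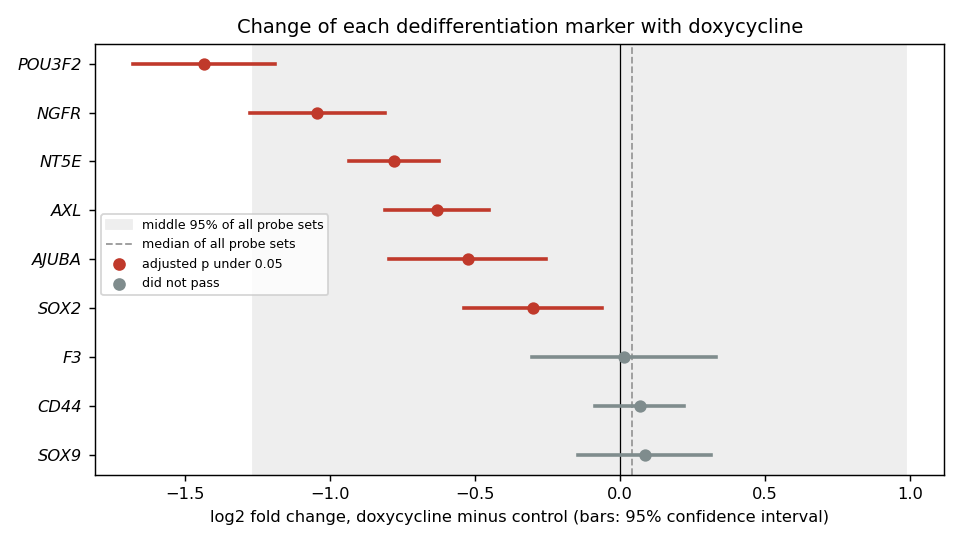
Log2 fold change of each marker, doxycycline minus control (horizontal axis), with its 95% confidence interval. The shaded band holds the middle 95% of all probe sets (-1.27 to 0.99), the dashed line is their median (0.04), and POU3F2 at -1.44 is the marker that lies outside the band.

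MITF moved the other way. It read 8.29, 8.37, 8.30, 8.26 and 8.44 log2 units with doxycycline, against 7.05, 7.11, 7.23, 7.14 and 7.06 in control cells, 2.32-fold higher (1.21 ± 0.08). Melanocytic differentiation genes as a list were mixed, with 5 of 17 measured higher, 2 lower and 9 under the first quartile in both groups. Over all probe sets 20.9% were called higher and 17.2% lower. CAPN3, a protease (1.17 ± 0.14), GPNMB, a melanosome glycoprotein (0.87 ± 0.09), and BCL2A1, a survival gene (0.46 ± 0.12), rose with MITF. TYR, tyrosinase, which makes pigment, was called at 0.23 ± 0.08 from a signal near the floor. The call was lost without control array 1, 2, 3 or 4 or doxycycline array 2, 4 or 5 (adjusted p = 0.0634 to 0.110). TYR was also lost after quantile normalization (0.0975), with a replicate block (0.0777) and with the trended, robust variance model (0.0597). MLPH (-0.45 ± 0.12) and MREG (-0.27 ± 0.08), both of melanosome transport, fell. MREG did not pass without doxycycline array 5 (adjusted p = 0.0527) or with the trended, robust variance model (0.0639). The list's median was -0.02, against 0.04 over all probe sets.

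**Figure D3:**
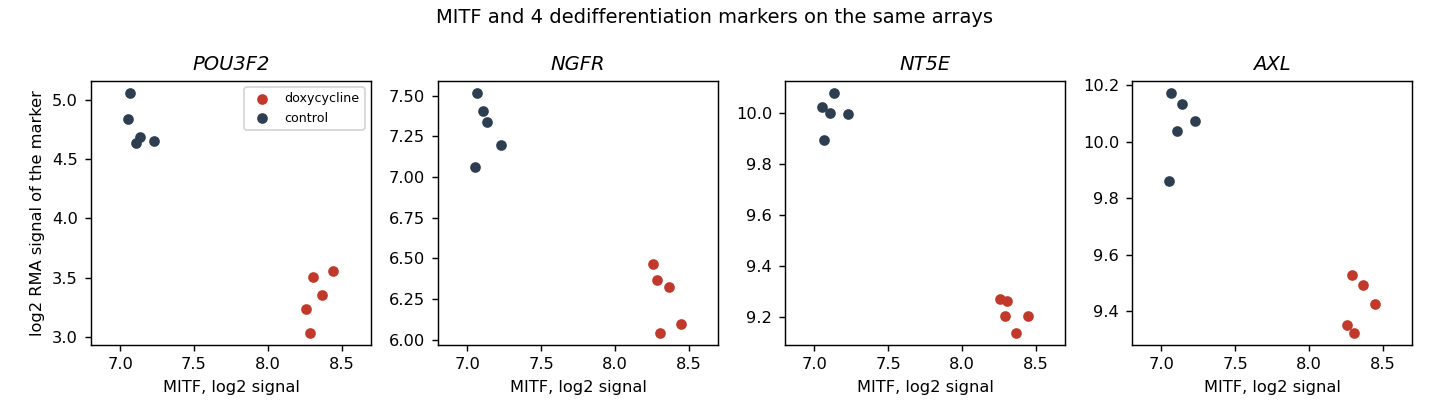
MITF log2 signal (horizontal axis) against the log2 signal of POU3F2, NGFR, NT5E and AXL (vertical axes, each with its own span), 1 point per array. The 5 doxycycline arrays lie at 8.26 to 8.44 for MITF with the lower marker signal, and the 5 control arrays at 7.05 to 7.23 with the higher.

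Among other genes of the undifferentiated and invasive state rises outnumbered falls. Of 35 measured, 22 rose and 5 fell, with a median log2 fold change of 0.36. Among all probe sets 20.9% were called higher and 17.2% lower. With the filter at the median signal, 20 of 28 rose and 5 fell, where 3029 of 9285 probe sets rose and 2557 fell. The cytokine genes IL6 (2.50 ± 0.18) and CXCL8 (1.36 ± 0.12) and fibronectin, FN1 (2.39 ± 0.10), rose most. IL6 read 5.07 ± 0.46 with doxycycline and 2.57 ± 0.21, under the first quartile, in control cells. IGFBP3, a binder of insulin-like growth factors (-4.06 ± 0.11), FOSL1, an AP-1 subunit (-1.60 ± 0.09), ITGA3, a laminin-binding integrin (-1.14 ± 0.09), CCN1 (-0.44 ± 0.13) and TWIST1 (-0.30 ± 0.09) were the 5 that fell.

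Other neural crest-like genes split. Of 25 measured 9 rose and 6 fell, with a median of 0.13, where 20.9% of all probe sets were called higher and 17.2% lower. With the filter at the median signal, 9 of 15 rose and 5 fell, where 3029 of 9285 probe sets rose and 2557 fell. The neural adhesion gene L1CAM read 6.23 ± 0.18 with doxycycline and 7.87 ± 0.19 in control cells (-1.64 ± 0.11), and SNAI2 (-1.54 ± 0.16) and RXRG, a retinoid receptor that marks neural crest-like melanoma cells (-1.27 ± 0.13), fell with NGFR. The cadherin CDH19 (1.46 ± 0.08), FABP7, a fatty acid binder of Schwann cell precursors (1.17 ± 0.14), and PAX3, which activates MITF (0.88 ± 0.12), rose. SOX10 was not among the called genes (0.19 ± 0.09).

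**Figure D4:**
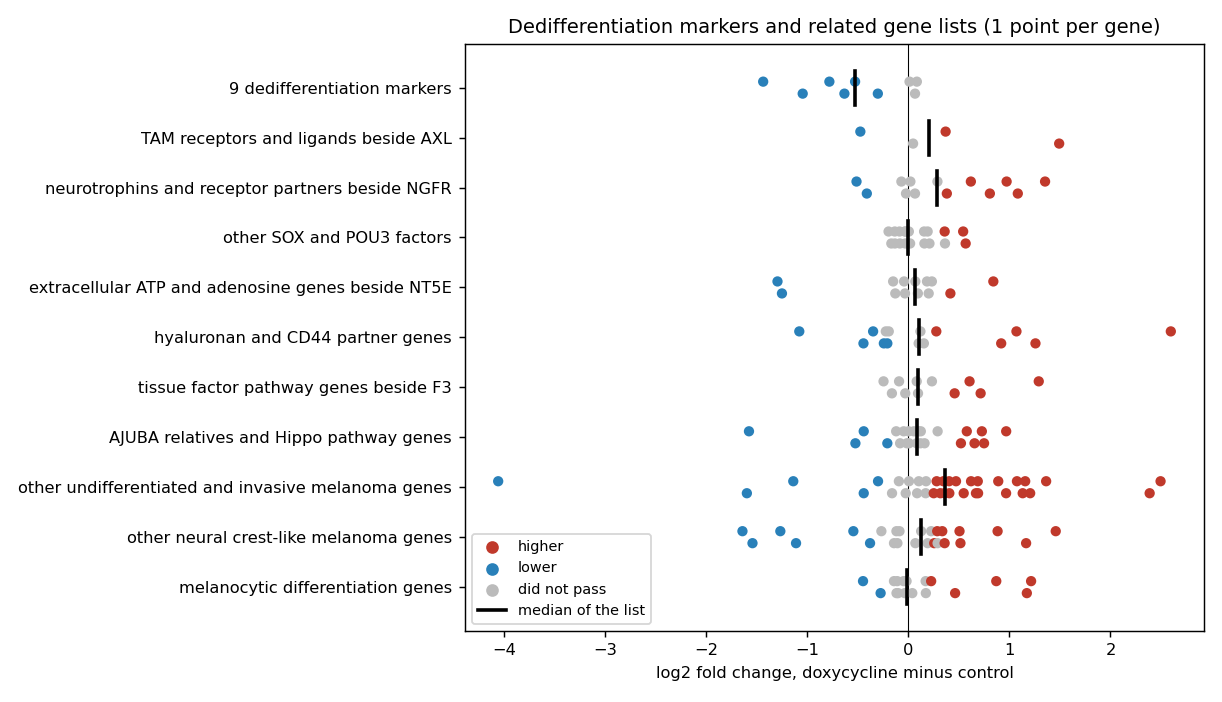
Log2 fold change, doxycycline minus control (horizontal axis), of each gene in the 9 markers and 10 related lists, coloured by call, with list medians as bars. The marker median lies at -0.53, while those of the other lists lie between -0.02 and 0.36.

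The partners of each marker were measured too. Beside AXL, the ligand gene GAS6 read 4.50 ± 0.15 with doxycycline and 4.98 ± 0.14 in control cells (-0.47 ± 0.10), and PROS1, the other ligand of this receptor family, read 6.51 ± 0.29 with doxycycline and 5.02 ± 0.19 in control cells (1.49 ± 0.13). Of the sister receptors, MERTK was called at 0.37 ± 0.13, though not without control array 1, 3 or 5 or doxycycline array 2, 3 or 4 (adjusted p = 0.0547 to 0.0872), and TYRO3 did not pass (0.05 ± 0.10). MERTK was also lost after quantile normalization (adjusted p = 0.0584). Its mean was 2.88 with doxycycline and 2.51 in control cells, the latter under the lowest first quartile (2.80). In this list of 4, 2 were called higher and 1 lower, where the shares over all probe sets were 20.9% and 17.2%.

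Beside NGFR, 6 of 13 neurotrophin and receptor partner genes rose and 2 fell, with a median of 0.29. Of all probe sets 20.9% were called higher and 17.2% lower. BDNF, a neurotrophin, read 5.89 ± 0.11 with doxycycline and 4.54 ± 0.14 in control cells (1.35 ± 0.09). The sorting receptors SORCS1 (1.08 ± 0.12) and SORL1 (0.97 ± 0.10) rose, whereas RTN4R, the Nogo receptor, which signals with NGFR (-0.51 ± 0.11), and SORCS2, which binds it (-0.41 ± 0.12), fell. RTN4R was dim, at 2.96 ± 0.13 with doxycycline, near the first quartile of those arrays (2.83 to 2.94), and 3.47 ± 0.21 in control cells. The SORCS2 groups overlapped. With the filter at the median signal, 4 of 6 list genes were called higher and 0 lower.

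Among 20 other SOX and POU3 factors 3 rose, and limma called 0 lower, also at an unadjusted p under 0.05. Over all probe sets 20.9% were called higher and 17.2% lower. Of the 20, 8 lay under the first quartile in both groups, where values hold little signal and a fall could hardly be seen. SOX5, a factor of neural crest and cartilage (0.54 ± 0.09), SOX15 (0.57 ± 0.17) and POU3F3, a close relative of POU3F2 (0.36 ± 0.11), rose. POU3F3 was dim, at 3.24 ± 0.25 with doxycycline and 2.88 ± 0.11 in control cells. It did not pass without doxycycline array 5 (adjusted p = 0.0539) or after quantile normalization (0.0625).

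For NT5E, 2 of 13 other genes of extracellular ATP and adenosine rose and 2 fell, no more than the 20.9% higher and 17.2% lower over all probe sets. The nucleoside carrier SLC29A1 read 4.53 ± 0.14 with doxycycline and 5.83 ± 0.26 in control cells (-1.29 ± 0.12), and adenosine kinase, ADK, 6.42 ± 0.18 with doxycycline and 7.67 ± 0.08 in control cells (-1.25 ± 0.09). ACP3, a phosphatase that can also make adenosine (0.84 ± 0.10), and adenosine deaminase, ADA (0.42 ± 0.13), rose, though ADA did not pass with array weights (adjusted p = 0.0778). The adenosine receptor genes measured, ADORA1, ADORA2A and ADORA2B, did not pass.

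Although CD44 did not pass, 5 of 15 hyaluronan and CD44 partner genes rose and 5 fell. Over all probe sets 20.9% were called higher and 17.2% lower. With the filter at the median signal, 5 of 9 list genes were called higher and 3 lower. Of all 9285 probe sets kept there, 3029 were called higher and 2557 lower. CEMIP, which breaks hyaluronan down, read 10.16 ± 0.12 with doxycycline and 7.56 ± 0.13 in control cells (2.60 ± 0.09). The CD44 ligand SPP1 (1.26 ± 0.12), the protease MMP14, which cleaves CD44 (1.07 ± 0.09), HYAL2, a hyaluronidase (0.92 ± 0.13), and RDX (0.28 ± 0.09) rose. The hyaluronan receptor HMMR, also a mitotic gene (-1.08 ± 0.11), the splicing factor ESRP1 (-0.44 ± 0.08), EZR, which ties CD44 to actin (-0.35 ± 0.08), the hyaluronan synthase HAS3 (-0.24 ± 0.09) and NF2 (-0.21 ± 0.08) fell. ESRP1 means of 2.17 with doxycycline and 2.62 in control cells both lay under the lowest first quartile, where values hold little signal. The calls of RDX, HAS3 and NF2 were fragile. RDX was lost without control array 5 or doxycycline array 3 or 4 (adjusted p = 0.0589 to 0.0721), and HAS3 without control array 2, 3 or 5 or doxycycline array 3 or 4 (0.0552 to 0.106). NF2 held only without control array 1 or doxycycline array 4 and was lost without any other array (0.0507 to 0.105). With a replicate block HAS3 (adjusted p = 0.0741) and NF2 (0.0894) were lost, as they were with arrays centred on their medians (0.0652 for HAS3, 0.0826 for NF2). HAS3 was also lost with the trended, robust variance model (0.112) and NF2 with array weights (0.0561). In this list 3 genes were called lower with the block, with centred arrays, and without control array 2, 3 or 5 or doxycycline array 3.

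In the tissue factor pathway 4 of 11 genes rose, and limma called 0 lower, with 1 lower at an unadjusted p under 0.05 and 1 without doxycycline array 2. Among all probe sets 20.9% were called higher and 17.2% lower. TFPI2 (1.29 ± 0.09) and TFPI, the inhibitor of the tissue factor complex (0.61 ± 0.09), rose, as did the thrombin receptors F2RL2 (0.72 ± 0.12) and F2R (0.46 ± 0.11). F7, the partner of F3, did not pass.

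Among AJUBA's relatives and the Hippo pathway 6 of 23 genes rose and 4 fell, with a median of 0.08. These shares are near the 20.9% higher and 17.2% lower over all probe sets and are no result about the list. TEAD4, a partner of YAP1, read 4.05 ± 0.26 with doxycycline and 5.63 ± 0.08 in control cells (-1.58 ± 0.11). LIMD1, a LIM protein of the same family (-0.52 ± 0.11), CCN1 and NF2 also fell, the last with the limits given above, while WTIP, the third relative, did not pass (0.00 ± 0.10). TEAD2 (0.97 ± 0.07), TEAD1 (0.75 ± 0.08) and the kinase LATS2 (0.73 ± 0.08) rose most.

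The genes whose centred values lay closest to each marker over the 10 arrays, by root mean square difference, were SARM1 (0.08 log2 units) and MCCC2 (0.11) for NGFR, EEFSEC (0.07) and CEBPE (0.07) for AXL, and FAF1 (0.04) and DNMT1 (0.06) for NT5E. For POU3F2 they were CTBP1 (0.13) and YARS1 (0.14), for AJUBA SLC67A1 (0.10) and SLC27A5 (0.10), and for SOX2 CDIN1 (0.06) and DUSP11 (0.07). Their log2 fold changes ran from -1.46 for YARS1 to -0.36 for DUSP11, a fall that their choice by likeness to lowered markers fixes.

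Some markers of other cell types moved as well, where 20.9% of all probe sets were called higher and 17.2% lower. Of 6 fibroblast markers 4 were called higher, and their mean log2 level was 4.44 to 4.55 on the doxycycline arrays and 3.84 to 4.00 on the control arrays. LUM (1.52 ± 0.10), PDGFRB (1.16 ± 0.10), DCN (0.40 ± 0.12) and COL1A1 (0.32 ± 0.11) were these 4, and THY1 lay under the first quartile in both groups. PDGFRB and COL1A1 are also counted among the rises of the undifferentiated and invasive list, so the lists are not separate observations. COL1A1 was lost without control array 1, 2, 4 or 5 or doxycycline array 1 or 2 (adjusted p = 0.0624 to 0.0826). It was also lost with array weights (0.130), a replicate block (0.0730) and the trended, robust variance model (0.0524). Of 5 endothelial markers KDR was called (1.18 ± 0.12), with list means of 3.28 to 3.63 with doxycycline and 2.95 to 3.23 in control cells, and PECAM1, CDH5 and TEK lay under the first quartile. The number called higher was 3 of 5 with arrays centred on their medians, with array weights and at an unadjusted p under 0.05, and 2 without doxycycline array 1 or 4. Of 5 leukocyte markers CD14 was called (0.51 ± 0.09), with list means of 2.93 to 3.08 with doxycycline and 2.77 to 2.96 in control cells. Of 5 keratinocyte markers KRT5 was called (0.39 ± 0.12), with list means of 2.42 to 2.64 with doxycycline and 2.38 to 2.66 in control cells, and its call was lost without control array 2 or 3 or doxycycline array 4 (adjusted p = 0.0542 to 0.0646). All 5 keratinocyte markers, KRT5 included, had a mean over the 10 arrays under the 25th percentile of probe set means. Array weights called 2 of them lower. Their part in the change of the 9 markers was not tested.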

How the data were processed

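Total RNA of 10 A375 samples was labelled with biotin and hybridised to Clariom S human HT arrays. The deposited values are log2 signals made with RMA (background correction, quantile normalization, probe set summary), per the submitters' processing notes. The RMA software version is not given in the sources used here. RMA equalises arrays, so fold changes are relative to other genes and a change of total RNA would not be seen. Array medians were 5.02 to 5.10 and the number of arrays limits precision. Of 18569 probe sets 17511 had 1 symbol and 1058 none. The highest-mean probe set stood for a gene with several.

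The comparison used limma 3.58.1 (lmFit, eBayes; R 4.3.3) with group as the only term and no filter. Tests were two-sided, p-values were adjusted by Benjamini-Hochberg across the whole table, and a probe set was called under 0.05. The fit was also run on simulated data with independent noise and few changed probe sets. In the real arrays 38.1% of probe sets were called, so that run does not check the calls given here. The exact permutation tests used all 252 splits, with 0.00794 as the smallest possible p. Confidence intervals are at 95%. No arrays held identical values. Same-numbered arrays were not treated as pairs in this fit. Correlations of their deviations were -0.44 to -0.01, but arrays of different number were not compared. Whether same-numbered samples were handled together was not tested.

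The 9 markers, the 10 lists and the 5 marker lists were chosen with earlier results of these data known. Text names all 9 markers, MITF, SOX10 and up to 3 called genes per list and direction, or all of a count of 5 or fewer, and the 2 closest profiles of each called marker. Other genes named were chosen after their values were seen. Filters, scalings, variance models, array weights, a replicate block and omission of each array were tried as alternatives.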

Additional observations from a re-analysis of the deposited data

Results flagged for a closer look

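Of 148 group values of named genes checked for an array far from its group, 6 stood out, where chance gives about 1 in 20. None of the 9 markers was among them, and all 6 were control arrays. Control array 5 was low for RDX (7.72, the others 7.90 to 7.94), for TFPI (5.54, the others 5.72 to 5.79) and for DCN (3.09, the others 3.40 to 3.51). RXRG was high on control array 4 (9.31, the others 8.89 to 8.99), COL1A1 on control array 3 (4.76, the others 4.29 to 4.41) and LUM on control array 1 (3.71, the others 3.36 to 3.42).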

How the results depend on the processing

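The falls of POU3F2, NGFR, NT5E, AXL and AJUBA passed under every alternative that tested them, with log2 fold changes of -1.49 to -1.35, -1.11 to -0.99, -0.81 to -0.75, -0.68 to -0.60 and -0.60 to -0.43. CD44 and SOX9 did not pass under any alternative run, and the filter at the median signal left out POU3F2, SOX9 and F3. The fall of SOX2 was lost after centring arrays on their medians (-0.27, adjusted p = 0.0763), after quantile normalization (-0.26, adjusted p = 0.0803), with array weights (-0.20, adjusted p = 0.138) and without any of 7 arrays. With the replicate number as a block SOX2 was at -0.30 (adjusted p = 0.0596), 5 markers were called lower and 6476 probe sets were called in all, and the 5 other markers kept their calls. F3 ran from -0.071 to 0.12 without 1 array at a time and changed sign near 0 under quantile normalization (-0.0014) and without control array 2 (-0.051), 3 (-0.047) or 5 (-0.020) or doxycycline array 1 (-0.011) or 3 (-0.071). Without 1 array at a time, 5 to 6 markers and 6378 to 7237 probe sets were called. The shares by direction depended on scaling. With arrays centred on their medians 4393 probe sets were called higher and 2916 lower, against 3875 and 3203 in the main fit. The median log2 fold change of all probe sets was then 0.075, against 0.041. Keeping the brighter probe sets above the median left 1 called gene in the AXL partner list, 4 in the neurotrophin list, 2 in the adenosine list and 2 in the melanocytic list, since fewer genes were tested. Of 64 called list genes named, 53 kept their call under every alternative that tested them. The causes of the other changes were not tested.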
